A study of Mus musculus with 8 samples.

Results

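The genes described here were 44 regulators and effectors of the cell division cycle, taken as a list by name and sorted by the phase in which they act. There were 14 G1 regulators and inhibitors, 12 S phase genes and 18 G2/M genes. All 44 were found by gene symbol among the 53465 genes of the count table, and all 44 were among the 14451 genes with enough counts to be tested. The measurements were RNA-seq of polyadenylated RNA from mouse heart ventricles at embryonic day 9.5 (E9.5), with 4 wild-type (WT) samples and 4 samples of the genotype Nrg-1flox;Tie2-Cre, here called the *Nrg1* mutant. In these mutants the gene for neuregulin-1, a growth factor that the endocardium sends to the myocardium, carries a conditional allele that is recombined by the Cre of the Tie2 driver line. The labels describe the driver as endothelial, and Tie2-Cre is also known to be active in blood cells. The labels state neither whether a sample is 1 embryo or a pool nor whether the WT embryos carried the floxed allele or Cre, so the p-values measure the spread between these samples, which may be technical.

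A cell that enters the division cycle first builds up D-type cyclins, which activate Cdk4 and Cdk6 in G1. Cyclin E and Cdk2 then complete the release of E2F transcription factors from the retinoblastoma protein, and E2F switches on the genes for DNA replication. Genes for mitosis are transcribed later, in G2, from promoters that often carry a CCAAT box and a cell cycle homology region (CHR), an element bound by the DREAM and MuvB complexes. At E9.5 the ventricle consists mainly of dividing cardiomyocytes lined by endocardium, and trabeculae are starting to form.

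*Nrg1* itself, on chromosome 8 (GRCm38, chr8:31814551-32884029, minus strand), had 156, 131, 121 and 173 counts in WT samples 1 to 4 and 61, 59, 71 and 72 in mutants 1 to 4. The groups did not overlap, and the log2 fold change was -1.07 (SE 0.14, adjusted p = 0.00268). Total counts ran from 11852372 to 14360323 in WT and from 12430368 to 14223860 in mutants. Of 12 cardiomyocyte markers, 0 changed by edgeR's quasi-likelihood test at an adjusted p under 0.05. Their summed level was 38333 to 40349 CPM (counts scaled to library size) in WT and 35873 to 39596 in mutants, so the tissue label was borne out in every sample. All 11 erythroid markers found in the table rose. Their sum was 6691 to 8092 CPM in WT, and it was 68627, 19824, 40170 and 41172 CPM in mutants 1 to 4. Hemoglobin genes took 6.26%, 1.93%, 3.80% and 3.89% of the counts in mutants 1 to 4, against 0.671% to 0.799% in WT. Mutant 1 stood apart, since its pairs with the other mutants had a chi-square per degree of freedom of 31.0 to 53.5, against 4.68 to 14.6 among the other 3 mutants. Of 10 endothelial and endocardial markers 1 fell, and of 6 epicardial markers 2 rose, with sums of 994 to 1076 CPM in WT and 869 to 944 in mutants for the former, and 127 to 195 and 198 to 330 for the latter. Of the macrophage list 2 of 7 genes had enough counts to be tested and 1 rose, with sums of 16.1 to 22.3 CPM in WT and 17.7 to 25.0 in mutants. Of the neural and paraxial list 2 of 6 were tested and 0 were called, with sums of 2.82 to 5.41 CPM in WT and 1.52 to 4.11 in mutants. In whole ventricles, a change in the number of cells of a type and a change in RNA per cell cannot be told apart, and the part of red blood cells in the results below was not tested.

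Of the 44 cell cycle genes, 12 passed the threshold in the comparison of mutant with WT, 11 of them higher and 1 lower in mutants. Over all genes tested 8.62% passed, 5.11% higher and 3.5% lower. The log2 fold change was above 0 for 33 of the 44 genes and below 0 for 11, with a median of 0.10, where the median over all 14451 genes was -0.0014 and 49.7% were above 0. The 4 mutant values lay wholly above the 4 WT values for 16 of the genes and wholly below for 4, so that 20 of 44 did not overlap, against 19% of all genes. By phase, 5 of 14 G1 genes were called (4 higher, 1 lower), 5 of 12 S phase genes (all higher) and 2 of 18 G2/M genes (both higher). The median log2 fold change was -0.03 for G1 (-0.06 without mutant 2 or without mutant 3), 0.18 for S phase and 0.10 for G2/M, and 7 of 14, 11 of 12 and 15 of 18 genes were above 0. Whether the shift differed between phases was not tested.

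**Figure D1:**
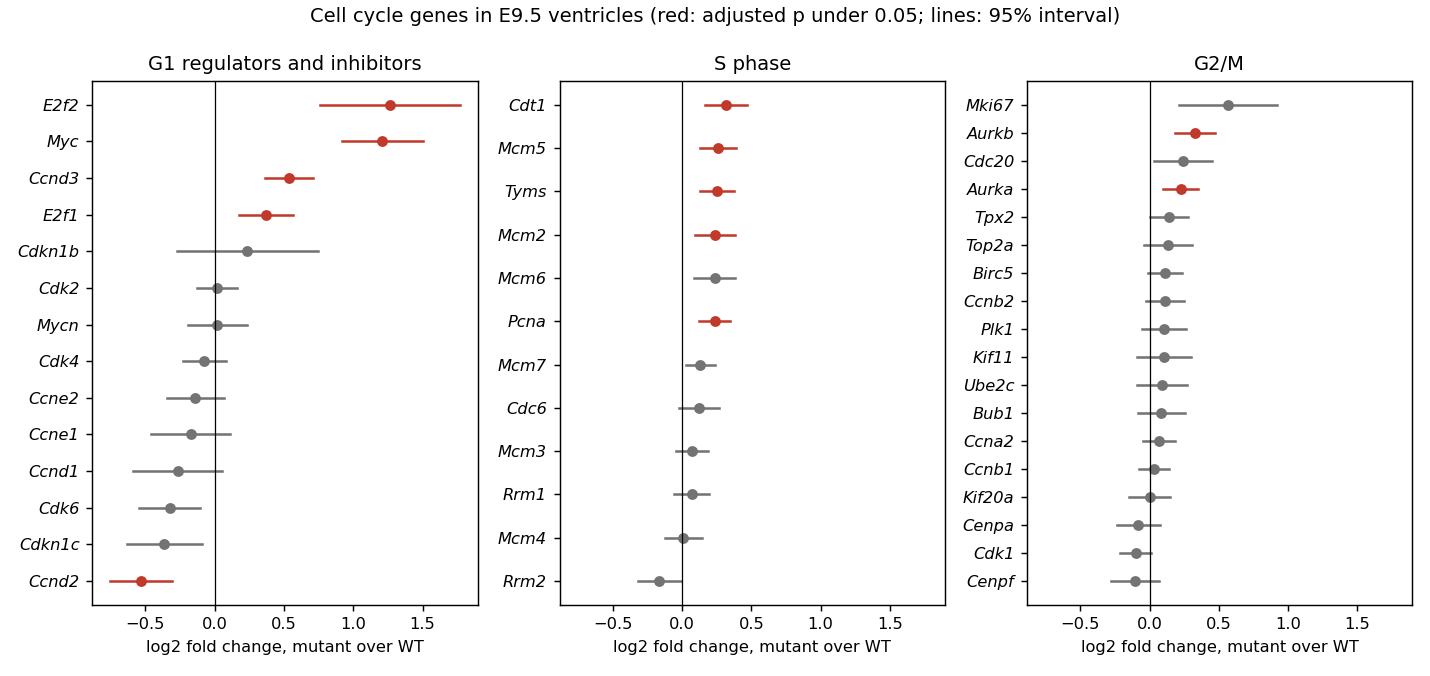
Log2 fold change, mutant over WT, of each of the 44 cell cycle genes in 3 panels by phase, with horizontal lines for the 95% interval and red for adjusted p under 0.05. The G1 panel spreads from -0.53 (*Ccnd2*) to 1.27 (*E2f2*), while S phase genes lie between -0.16 and 0.32 and 11 of 12 of them are above 0.

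The number of calls depended on the libraries. *Myc*, *E2f2*, *Ccnd2* and *Ccnd3* were called in each of the 8 fits that left out 1 sample. The other calls were not: the number of cell cycle genes called was 17 without mutant 1, 15 without mutant 2, 6 without mutant 3, 5 without mutant 4, 5 without WT 1, 7 without WT 2, 5 without WT 3 and 4 without WT 4. For S phase alone the counts were 6, 6, 1, 0, 1, 2, 0 and 0 in the same order, and for G2/M they were 5, 3, 1, 1, 0, 1, 1 and 0. Over all genes the count was 1245 with every sample, 2523 without mutant 1, 1386 without mutant 2, and between 509 and 784 without mutant 3, mutant 4 or any 1 WT sample. In the same order of samples left out, 17.2%, 9.53%, 5.38%, 4.45%, 3.48%, 4.81%, 4.05% and 3.91% of all genes were called. Of the cell cycle genes it was 38.6%, 34.1%, 13.6%, 11.4%, 11.4%, 15.9%, 11.4% and 9.09%. Under 9 other settings of the test, *Aurkb* was called in 9, *Pcna* and *Mcm5* in 8, *E2f1*, *Cdt1* and *Tyms* in 7, *Aurka* in 6 and *Mcm2* in 4. Of genes not called at first, *Mcm6* was called in 4 of these settings, *Mki67* in 3, *Cdkn1c* in 2 and *Cdk6* and *Mcm7* in 1. DESeq2 called 17 of the 44 genes, the 12 and these 5, where 12.2% of all genes were called.

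The D-type cyclins, which couple growth signals to Cdk4 and Cdk6, moved in opposite directions. *Ccnd2* (cyclin D2; chr6:127125162-127152193, minus strand) was at 956, 942, 983 and 969 CPM in WT 1 to 4 and at 516, 698.5, 756 and 692 CPM in mutants 1 to 4. Every mutant lay below every WT sample and mutant 1 was the lowest, and the gene fell by 0.53 on the log2 scale (SE 0.10, adjusted p = 0.0122), the 1 fall called among the 44 genes. *Ccnd3* (cyclin D3; chr17:47505051-47599691, plus strand) was at 342, 364, 335 and 333 CPM in WT and at 477, 431, 541 and 541 CPM in mutants. All mutants lay above all WT samples, mutant 2 being the lowest of them, and the log2 fold change was 0.53 (SE 0.08, adjusted p = 0.0036). *Ccnd1* (cyclin D1) was at 128 to 160 CPM in WT and at 83.3, 134, 127 and 138 CPM in mutants. Mutant 1 was far below WT and the other mutants lay at or near the WT range, and the difference was not called (log2 fold change -0.27, 95% interval -0.59 to 0.06, adjusted p = 0.288). Without mutant 1 the log2 fold change was -0.12.

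Per length of exon, which allows levels to be compared between genes, *Ccnd2* had the highest value of the D-type cyclins in WT ventricles at 102 ± 1.87 CPM per kb (SD, n = 4), followed by *Ccnd3* at 39.2 ± 1.62 and *Ccnd1* at 30.8 ± 2.85 CPM per kb. In mutants *Ccnd2* was at 70.7 ± 11.03, *Ccnd3* at 56.7 ± 6.11 and *Ccnd1* at 25.6 ± 5.37 CPM per kb. The sum of the 3 was 172 ± 2.42 CPM per kb in WT and 153 ± 18.9 in mutants, and it was 127, 152, 169 and 165 CPM per kb in mutants 1 to 4 against 170 to 176 in WT. The share of *Ccnd3* in that sum was 22.2% to 23.6% in the 4 WT samples, and it was 42.8%, 32.4%, 36.5% and 37.5% in mutants 1 to 4. The level of *Ccnd3* itself was 54.4, 49.2, 61.7 and 61.7 CPM per kb in mutants 1 to 4, and mutant 1 had the highest share because its levels of *Ccnd2* (54.8 CPM per kb) and *Ccnd1* (17.7 CPM per kb) were the lowest. These values divide by the total annotated exon length of each gene, which need not be that of the transcripts expressed here, so the order of the 3 genes and their shares within a sample depend on it.

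**Figure D2:**
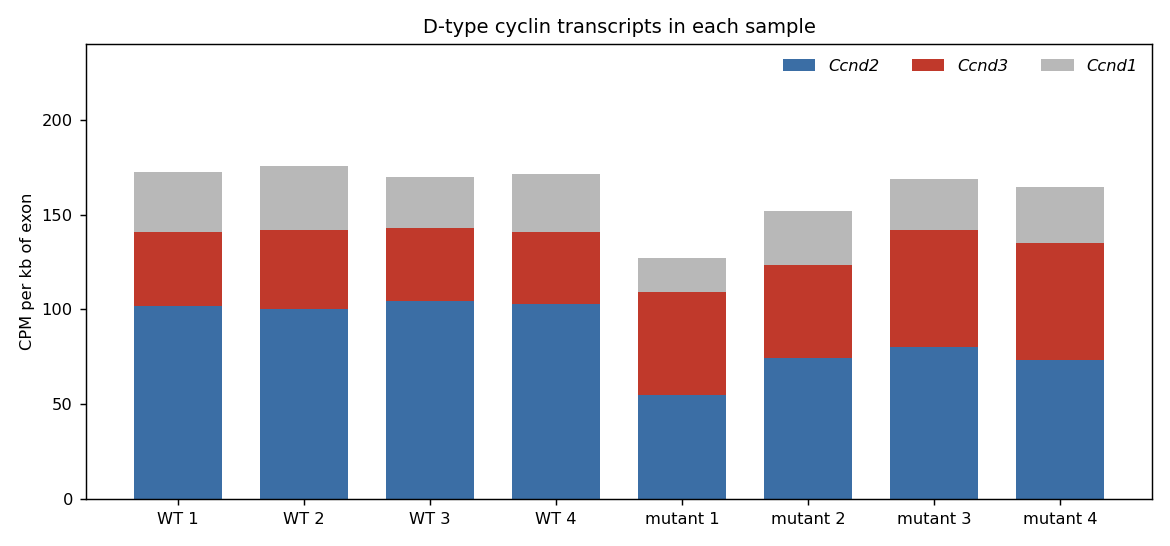
Stacked bars of *Ccnd1*, *Ccnd2* and *Ccnd3* transcripts in each of the 8 samples, in CPM per kb of exon. *Ccnd2* takes 57.0% to 61.5% of the bar in WT samples and 43.2% to 48.9% in mutants, and *Ccnd3* takes 22.2% to 23.6% and 32.4% to 42.8%.

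Among the 44 genes, the kinases, E-type cyclins and inhibitors of G1 gave no calls in the main edgeR fit. *Cdk6* and *Cdkn1c* were called with DESeq2 and in some other edgeR fits. *Cdk4* was at 407 to 429 CPM in WT and at 339, 415, 411 and 415 CPM in mutants (log2 fold change -0.08, 95% interval -0.23 to 0.08), with mutant 1 alone far below. Its log2 fold change was -0.0082 without mutant 1 and -0.15 with a correction for GC content and length, with no call in either. *Cdk6*, the other kinase of D-type cyclins, was at 50.6, 43.9, 46.1 and 49.8 CPM in WT and at 32.7, 43.2, 41.6 and 34.4 CPM in mutants. Those groups did not overlap, and the log2 fold change of -0.32 (SE 0.10) had an adjusted p of 0.0683. This was 0.0403 without mutant 2 and 0.0567 to 0.185 without any other 1 sample. The genes of the next step, *Ccne1* and *Ccne2* (cyclins E1 and E2) and *Cdk2*, had log2 fold changes of -0.17, -0.14 and 0.02, with 95% intervals of -0.46 to 0.11, -0.35 to 0.06 and -0.12 to 0.16. Without mutant 1, *Ccne1* was at -0.05 and *Ccne2* at -0.21, and without mutant 4 *Ccne2* was at -0.07.

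*Cdkn1c*, which encodes the inhibitor p57, was the most abundant inhibitor of the list. It was at 1792, 1841, 1628 and 1589 CPM in WT and at 979.5, 1391, 1492 and 1464 CPM in mutants. No mutant reached the lowest WT sample, and the log2 fold change was -0.36 (SE 0.12, adjusted p = 0.0978). It was -0.24 (adjusted p = 0.0168) without mutant 1, -0.51 (adjusted p = 0.00907) with a correction for GC content and length, and -0.36 (adjusted p = 0.0406) with DESeq2. Leaving out any other 1 sample gave no call, with adjusted p of 0.0979 to 0.221. Of the 9 other settings, only these 2 gave the call. *Cdkn1b*, which encodes p27, was at 57.4 to 61.6 CPM in WT and at 114, 57.5, 56.2 and 49.7 CPM in mutants. Mutant 1 alone was high, and the log2 fold change was 0.24 (adjusted p = 0.568) with it and -0.11 without it.

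The transcription factors at the entry to S phase held the largest changes. *Myc* (chr15:61985391-61990374, plus strand), which drives growth and division genes, was at 19.9, 20.2, 21.1 and 20.5 CPM in WT and at 56.6, 34.7, 49.6 and 48.4 CPM in mutants. The WT samples lay close together and every mutant lay well above them, a rise of 2.31-fold (95% interval 1.89 to 2.83, adjusted p = 0.00162). Its paralog *Mycn*, known to be needed for growth of the embryonic myocardium, was at 92.6 to 99.3 CPM in WT and at 78.0, 108, 105 and 95.7 CPM in mutants (log2 fold change 0.02, 95% interval -0.19 to 0.23).

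*E2f2* (chr4:136172394-136196057, plus strand), an activator E2F, was at 11.6, 15.8, 10.4 and 11.4 CPM in WT and at 41.4, 18.6, 27.5 and 31.2 CPM in mutants. Mutant 2 was close to WT 2 and mutant 1 was the highest, and the rise was 2.41-fold (95% interval 1.70 to 3.41, adjusted p = 0.00906). The order of the mutants, from mutant 1 through 4 and 3 to 2, was that of their summed erythroid markers. *Mcm6*, *Rrm1*, *Tpx2* and *Kif11* had this order too, while *Myc* and *Mki67* did not, and its cause was not tested. *E2f1*, a second activator, was at 33.8, 33.3, 27.4 and 31.6 CPM in WT and at 36.5, 39.0, 43.7 and 44.2 CPM in mutants, where mutant 1 was the lowest. The groups did not overlap and the gene rose by a log2 fold change of 0.37 (SE 0.09, adjusted p = 0.0307). That call was kept without mutant 1 or mutant 2 and lost without any other sample, with adjusted p of 0.0614 to 0.0881. With a correction for GC content and length, the log2 fold change was 0.24 and the call was lost (adjusted p = 0.0735).

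**Figure D3:**
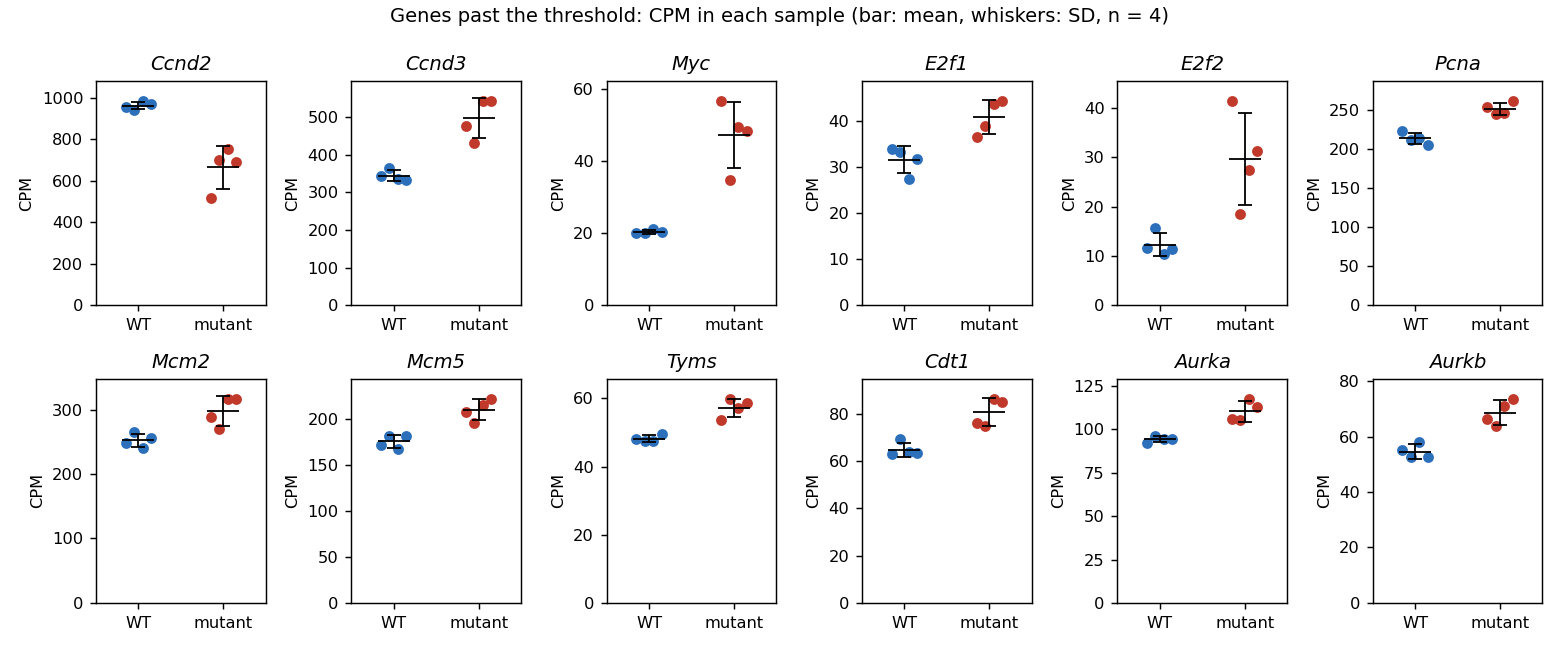
CPM of the 12 cell cycle genes past the threshold, 1 panel a gene, with each of the 4 WT and 4 mutant samples as a point, a bar for the mean and whiskers for the SD. In every panel the 4 mutant points lie on 1 side of the 4 WT points, lower for *Ccnd2* and higher for the other 11.

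Among S phase genes the changes were small and mostly in 1 direction. *Pcna*, the sliding clamp of the replication fork, was at 223, 212, 214 and 206 CPM in WT and at 253, 245, 246 and 261 CPM in mutants. The lowest mutant was above the highest WT sample, and the rise was 1.18-fold (95% interval 1.09 to 1.27, adjusted p = 0.0183). *Cdt1*, which loads the MCM helicase onto origins, was at 62.7, 69.1, 63.8 and 63.2 CPM in WT and at 76.0, 74.9, 86.1 and 85.1 CPM in mutants. It rose 1.24-fold (95% interval 1.12 to 1.38, adjusted p = 0.0203). With a correction for GC content and length, its log2 fold change went from 0.32 to 0.19 and the call was lost (adjusted p = 0.0672). *Tyms*, the thymidylate synthase that supplies dTMP, was at 48.0, 47.4, 47.5 and 49.6 CPM in WT and at 53.7, 59.8, 57.1 and 58.6 CPM in mutants. The groups did not overlap and the gene rose 1.19-fold (adjusted p = 0.0214).

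The subunits of the MCM helicase, *Mcm2* to *Mcm7*, had 6 of 6 log2 fold changes above 0, against 49.7% of all genes, and 4 of 6 did not overlap between groups, against 19%. *Mcm5* (chr8:75109569-75128439, plus strand) was at 171, 181, 167 and 181 CPM in WT and at 208, 195, 215 and 221 CPM in mutants, a rise of 1.20-fold (adjusted p = 0.0233). *Mcm2* was at 248, 264, 240.5 and 256 CPM in WT and at 288, 269, 316 and 316 CPM in mutants. Its log2 fold change of 0.24 (SE 0.06) passed the threshold narrowly, with an adjusted p of 0.04997. *Mcm6* had the same log2 fold change of 0.24 (SE 0.07) and missed it narrowly, with an adjusted p of 0.0551. Its adjusted p was 0.0301 without mutant 1, 0.0185 without mutant 2 and 0.0869 to 0.155 without any other 1 sample. It was at 207, 217, 210.2 and 212 CPM in WT and at 277, 224, 242 and 255 CPM in mutants. *Mcm7* was at 238, 252, 241 and 253 CPM in WT and at 273, 258, 272 and 275 CPM in mutants. Its groups did not overlap either, and the log2 fold change was 0.13 (adjusted p = 0.122), 0.05 (adjusted p = 0.500) with a correction for GC content and length, and 0.14 (adjusted p = 0.0382) with DESeq2. *Mcm3* and *Mcm4* were at 0.07 and 0.01, with 95% intervals of -0.04 to 0.19 and -0.13 to 0.14.

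Of the remaining S phase genes, *Rrm1* and *Rrm2* encode the large and small subunits of ribonucleotide reductase, the enzyme that makes deoxyribonucleotides. *Rrm1* had a log2 fold change of 0.07 (95% interval -0.06 to 0.19). *Rrm2* was the 1 gene of the phase below 0, at 232, 235, 214 and 218 CPM in WT and at 181, 195, 224 and 202 CPM in mutants (log2 fold change -0.16, adjusted p = 0.180). *Cdc6*, the partner of *Cdt1* in helicase loading, was at 48.0 to 53.1 CPM in WT and at 51.6 to 59.9 CPM in mutants (log2 fold change 0.12, adjusted p = 0.270). The S phase calls were kept in few of the fits with 1 sample left out: *Pcna* in 4 of 8, *Cdt1* and *Mcm5* in 3 of 8, and *Mcm2* and *Tyms* in 2 of 8. All of these rises were kept without mutant 1 and without mutant 2, and all were lost without mutant 4, WT 3 or WT 4, with adjusted p of 0.0538 to 0.145 among the lost calls. The 5 log2 fold changes were all above 0 in each of the 8 fits, from 0.21 to 0.36.

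In G2/M, 2 of 18 genes were called (11.1%, against 8.62% of all genes), and both encode mitotic kinases. *Aurkb* (chr11:69045647-69051664, plus strand), the kinase of the chromosomal passenger complex, was at 55.1, 52.5, 58.2 and 52.7 CPM in WT and at 66.5, 63.8, 71.0 and 73.5 CPM in mutants. It rose 1.26-fold (95% interval 1.14 to 1.39, adjusted p = 0.0140), and the call was lost without WT 1 or WT 4, with adjusted p of 0.0514 and 0.0565. *Aurka*, the spindle pole kinase, was at 92.1, 96.3, 94.5 and 94.7 CPM in WT and at 106, 105, 117 and 113 CPM in mutants. It rose 1.17-fold (95% interval 1.07 to 1.27, adjusted p = 0.0358), and the call was kept without mutant 1 or mutant 2 and lost without any other sample, with adjusted p of 0.0760 to 0.123. Of their partners, *Birc5* (survivin), which sits with *Aurkb* in the passenger complex, was at 90.5 to 98.1 CPM in WT and 99.4 to 108 CPM in mutants, and *Tpx2*, which activates *Aurka*, was at 159.9, 164, 171 and 176 CPM in WT and at 203, 176.5, 180 and 181 CPM in mutants. Neither was called (log2 fold changes 0.11 and 0.14, adjusted p = 0.229 and 0.187).

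*Mki67*, which encodes the proliferation marker Ki-67, was at 447, 466, 450.2 and 409 CPM in WT and at 919, 494, 607 and 601 CPM in mutants. The groups did not overlap, and mutant 1 lay far above the others. The log2 fold change was 0.56 (SE 0.16, adjusted p = 0.0568) with all samples, 0.36 (adjusted p = 0.00916) without mutant 1 and 0.69 (adjusted p = 0.0185) without mutant 2. Without any other 1 sample the gene was not called, with adjusted p of 0.0864 to 0.152. *Cdc20*, an activator of the anaphase-promoting complex, was at 113, 118, 108 and 118 CPM in WT and at 112, 127, 150.0 and 149.8 CPM in mutants (log2 fold change 0.24, adjusted p = 0.148). It was 0.32 (adjusted p = 0.0103) without mutant 1, 0.18 (adjusted p = 0.296) without mutant 3 and 0.13 (adjusted p = 0.326) with a correction for GC content and length.

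The cyclins and the kinase that start mitosis were close to WT. *Ccna2*, *Ccnb1* and *Ccnb2* (cyclins A2, B1 and B2) had log2 fold changes of 0.07, 0.03 and 0.11, with 95% intervals of -0.05 to 0.19, -0.08 to 0.14 and -0.03 to 0.25. *Cdk1*, their kinase, was at 152, 159, 158 and 162 CPM in WT and at 148, 151, 148 and 141 CPM in mutants. All mutants lay just below all WT samples, and the log2 fold change was -0.10 (95% interval -0.21 to 0.01, adjusted p = 0.243). *Top2a*, the topoisomerase that untangles sister chromatids, and *Kif11*, a spindle motor, were at 0.13 and 0.10. In each of them mutant 1 was far above the other mutants. Without it they were at 0.04 and -7.16e-05, and *Bub1*, a spindle checkpoint kinase, went from 0.08 to 0.02. *Top2a* was at 551.5 to 563 CPM in WT and at 722, 561, 586 and 572 CPM in mutants, so that mutants 3 and 4 were also above every WT sample. *Kif11* was at 146 to 150 CPM in WT and at 192, 146, 147 and 150 CPM in mutants. The mitotic kinase genes *Plk1* and *Bub1*, the ubiquitin carrier *Ube2c*, the centromere genes *Cenpa* and *Cenpf* and the motor *Kif20a* had log2 fold changes from -0.11 to 0.10 and adjusted p of 0.412 to 0.991. *Cenpf*, at -0.11, was called without mutant 1, at -0.18 with an adjusted p of 0.0498.

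Seen by sample, the mean difference of the S phase genes from the WT mean was 0.15, 0.07, 0.17 and 0.20 (log2 CPM) in mutants 1 to 4, against -0.03 to 0.03 in WT. For G2/M genes it was 0.15, 0.06, 0.11 and 0.12 in mutants and -0.04 to 0.03 in WT. For G1 genes the mean was 0.04, 0.07, 0.17 and 0.15 in mutants and -0.05 to 0.03 in WT, but the median was -0.22, -0.01, -0.04 and -4.26e-05 in mutants, with 6, 6, 6 and 7 of 14 genes above the WT mean. In G1 there were also 6 of 14 genes above every WT sample in each mutant and 8, 4, 7 and 5 below every WT sample. Mutant 2, with the lowest hemoglobin share of the mutants, had the lowest mean in S phase and in G2/M. Mutant 1, with the highest share, had the highest mean in G2/M and the lowest in G1. In S phase, 10, 7, 9 and 11 of 12 genes of mutants 1 to 4 lay above every WT sample, and 1, 2, 0 and 1 lay below. In G2/M 11, 9, 10 and 11 of 18 lay above and 4, 2, 2 and 2 below. Over all genes tested, 36.3%, 28.8%, 29.3% and 30.6% lay above every WT sample in mutants 1 to 4, and 37.2%, 27.7%, 31.0% and 31.3% below.

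**Figure D4:**
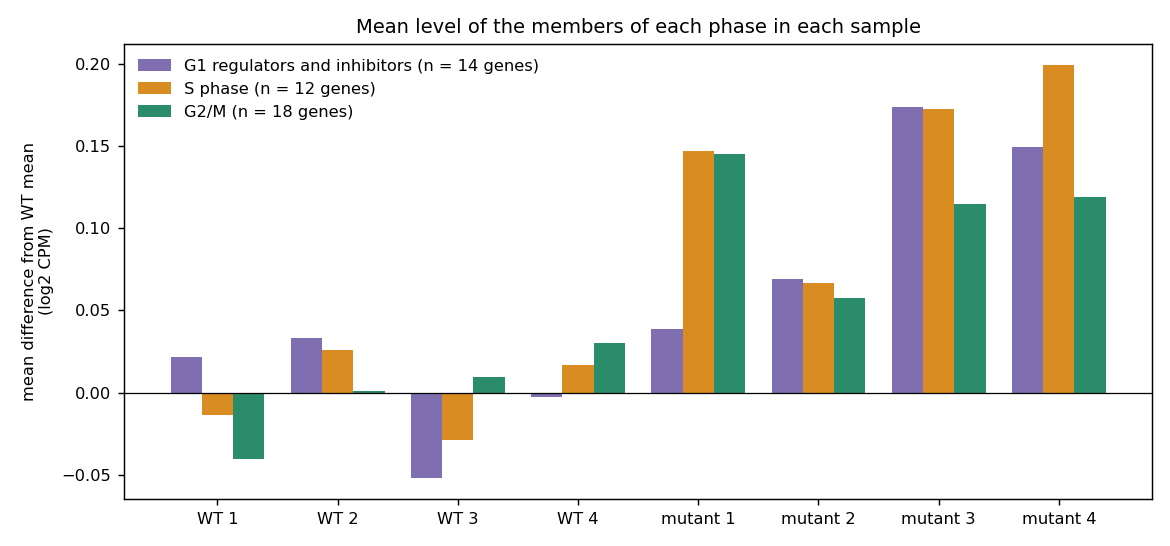
Mean over the genes of each phase of the difference from the WT mean (log2 CPM), as bars for each of the 8 samples. All 4 mutants are above 0 in all 3 phases, from 0.04 to 0.20, and WT samples lie between -0.05 and 0.03. The G1 bar of mutant 1 (0.04) is close to that of WT 2 (0.03).

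A wider list of cell cycle genes held 96 further names, of which 93 were tested. Of these 14 passed the threshold (15.1%, against 8.62% of all genes), 12 higher and 2 lower, and the median log2 fold change was 0.08. By phase, 5 of 24 G1 genes were called (3 higher, 2 lower), 4 of 32 S phase genes (all higher, 12.5%) and 5 of 37 G2/M genes (all higher, 13.5%). The count was 20, 17, 5 and 3 without mutants 1 to 4 in turn and 2, 6, 3 and 2 without WT 1 to 4. As a share of the list this was 21.5%, 18.3%, 5.38%, 3.23%, 2.15%, 6.45%, 3.23% and 2.15%, where 17.2%, 9.53%, 5.38%, 4.45%, 3.48%, 4.81%, 4.05% and 3.91% of all genes were called. The share of the list was therefore at or below that of all genes without mutant 3, mutant 4, WT 1, WT 3 or WT 4. *Cdc25b*, a phosphatase that activates cyclin-dependent kinases before mitosis, had the largest rise, 2.59-fold (95% interval 1.89 to 3.56, adjusted p = 0.00403). It was at 30.4, 34.5, 29.9 and 26.2 CPM in WT and at 103, 49.2, 68.3 and 93.3 CPM in mutants. The order of the mutants was that of the erythroid markers, as for *E2f2*, *Mcm6*, *Rrm1*, *Tpx2* and *Kif11*, and its cause was not tested. *Pkmyt1*, a kinase that restrains *Cdk1*, rose by a log2 fold change of 0.60 (adjusted p = 0.0183), *Espl1*, the separase that cuts cohesin, by 0.34 (adjusted p = 0.00964), and *Cks2* and *Cdca3* by 0.25 and 0.23 (adjusted p = 0.0357 and 0.0334). In G1, *E2f4* and *Rbl2*, an E2F and a pocket protein of the repressor complex DREAM, rose by 0.48 and 0.44 (adjusted p = 0.0152 and 0.0265), and *E2f3*, an activator E2F, fell by 0.27 (adjusted p = 0.0312). *Cdkn1a* and *Skp2* are named after their values were seen. *Cdkn1a*, which encodes the inhibitor p21, was at 14.9, 17.4, 15.7 and 16.0 CPM in WT and at 38.6, 21.2, 20.9 and 25.1 CPM in mutants, without overlap and with mutant 1 the highest. It rose 1.65-fold (95% interval 1.24 to 2.19, adjusted p = 0.0397). *Skp2*, a ubiquitin ligase subunit that targets p27, was at 66.6, 66.8, 71.6 and 73.2 CPM in WT and at 47.5, 60.7, 59.1 and 56.0 CPM in mutants. Every mutant lay below every WT sample, and the gene fell by 0.32 on the log2 scale (adjusted p = 0.0397). In S phase, *Chaf1a*, a histone chaperone subunit, rose by 0.29 and *Orc2*, an origin recognition subunit, by 0.26 (adjusted p = 0.0253 and 0.0309).

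The promoters were read as a feature that entered neither the list nor the test. RefSeq promoter windows of 300 bases (GRCm38.p6, 250 before and 50 after a transcription start) were found for 34 of the 44 genes, and letter matches were sought on both strands. The E2F letters were the 8 octamers TTTCCCGC, TTTCCCGG, TTTCGCGC, TTTCGCGG, TTTGCCGC, TTTGCCGG, TTTGGCGC and TTTGGCGG, the CHR letters were TTTGAA, and the NF-Y box was CCAAT. An E2F octamer was present in 6 of 11 S phase genes, 3 of 9 G1 genes and 2 of 14 G2/M genes, against 4.51% of all 32851 windows. The CHR letters were present in 11 of 14 G2/M genes, 1 of 11 S phase genes and 2 of 9 G1 genes, against 17.9% of all windows. CCAAT was present in 13 of 14 G2/M genes, 8 of 11 S phase genes and 4 of 9 G1 genes, against 37.4%. The E-box letters CACGTG, which Myc proteins bind, were present in 2 of 9 G1 genes, 1 of 11 S phase genes and 0 of 14 G2/M genes, against 7.15%. Such a match is a description of the letters and not a binding site, and genes may have more than 1 window, which raises their chance of a match.

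**Figure D5:**
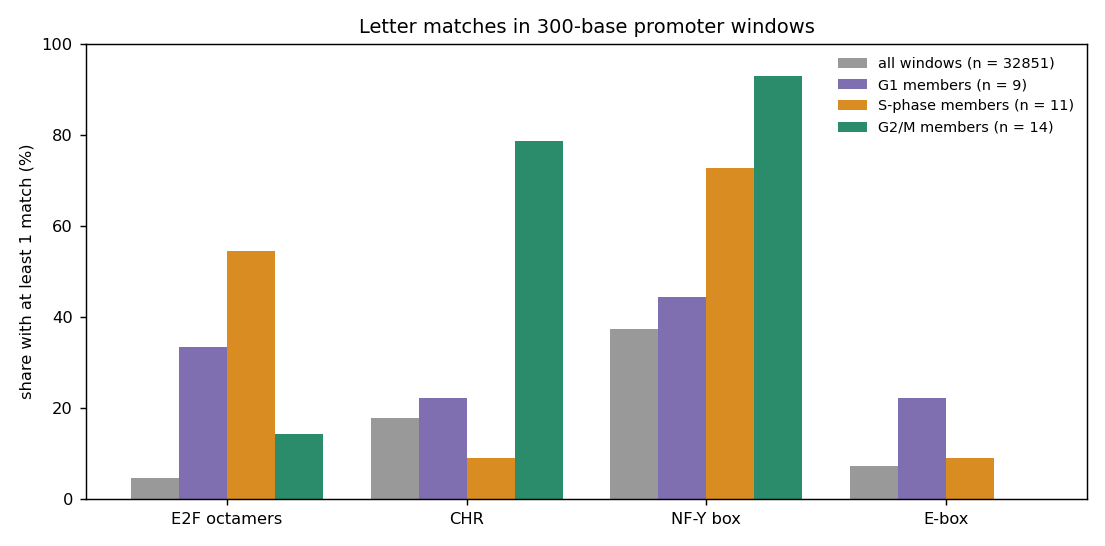
Share of promoter windows or genes with at least 1 match to the E2F octamers, the CHR hexamer, the NF-Y box and the E-box, for all windows and for the genes of each phase. E2F matches are most frequent in S phase genes (54.5%) and CHR matches in G2/M genes (78.6%).

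The 160 bases before the start are shown for 2 helicase genes on either side of the threshold and for 4 G2/M genes, of which *Aurka* rose and the others did not pass, with E2F, CHR and CCAAT letters in capitals on either strand. They are written 5′ to 3′ on the strand of the gene. The *Mcm5* stretch is chr8:75109349-75109508 (plus strand) and holds 2 overlapping E2F octamers, and the *Mcm6* stretch is chr1:128359706-128359865 (minus strand) and holds 3. The *Cdk1* stretch is chr10:69352913-69353072 (minus strand), with an E2F octamer and 2 CHR hexamers. The *Aurka* stretch is chr2:172370571-172370730, the *Ccnb2* stretch chr9:70421555-70421714 and the *Cdc20* stretch chr4:118437344-118437503, all on the minus strand and each with at least 2 CCAAT boxes. The CHR letters of *Aurka* and *Ccnb2* lie in their windows but outside the bases shown.
Mcm5: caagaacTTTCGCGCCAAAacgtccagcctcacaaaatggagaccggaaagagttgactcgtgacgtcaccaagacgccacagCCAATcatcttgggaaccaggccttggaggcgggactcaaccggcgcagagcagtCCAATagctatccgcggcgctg
Mcm6: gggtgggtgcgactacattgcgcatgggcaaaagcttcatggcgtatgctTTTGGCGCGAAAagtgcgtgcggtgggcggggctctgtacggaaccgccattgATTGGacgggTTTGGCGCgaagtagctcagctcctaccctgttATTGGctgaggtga
Aurka: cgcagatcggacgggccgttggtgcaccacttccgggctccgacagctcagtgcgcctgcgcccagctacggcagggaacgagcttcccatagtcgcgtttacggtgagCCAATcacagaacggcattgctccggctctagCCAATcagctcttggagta
Cdk1: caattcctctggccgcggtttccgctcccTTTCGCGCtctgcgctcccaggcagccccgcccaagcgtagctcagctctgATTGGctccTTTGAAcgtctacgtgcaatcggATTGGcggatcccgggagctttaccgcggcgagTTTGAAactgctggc
Ccnb2: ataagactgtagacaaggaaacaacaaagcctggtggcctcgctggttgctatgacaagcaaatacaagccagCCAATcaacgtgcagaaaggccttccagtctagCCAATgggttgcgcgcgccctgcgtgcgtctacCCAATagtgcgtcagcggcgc
Cdc20: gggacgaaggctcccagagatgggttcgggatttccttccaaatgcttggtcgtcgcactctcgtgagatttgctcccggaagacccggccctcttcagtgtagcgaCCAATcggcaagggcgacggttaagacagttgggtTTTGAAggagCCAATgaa
Beside these letters, *Mcm5* and *Mcm6* had log2 fold changes of 0.26 and 0.24, and *Aurka*, *Cdk1*, *Ccnb2* and *Cdc20* of 0.22, -0.10, 0.11 and 0.24.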

How the data were processed

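RNA was measured in 4 WT and 4 Nrg-1flox;Tie2-Cre samples. The authors deposited expected counts per gene, not scaled for depth or length; per the labels, cutadapt and RSEM 1.3.1 with GRCm38 were used on 60-base single reads. The aligner and the strand setting are not given in the sources used here, so reads of overlapping genes on opposite strands may be mixed. The expected counts were rounded and tested with edgeR 4.0.16 in R 4.3.3 (filterByExpr by genotype, TMM, quasi-likelihood test, Benjamini-Hochberg adjustment over all 14451 genes tested, threshold 0.05). CPM values are TMM-normalized. SE was derived as log2 fold change over the root of F. Every cell cycle gene is named, with single samples for those with an adjusted or unadjusted p under 0.05 and for some others, where 1 sample or the lack of overlap is described; of the wider list, the 10 called genes with the smallest p are named, and *Cdkn1a* and *Skp2* besides. Members and lists were chosen with earlier results of these data known. Other settings were upper-quartile and RLE scaling, limma-voom (limma 3.58.1), DESeq2 1.42.0, no filter, at least 10 counts in every sample, removal of hemoglobin and mitochondrial genes, a replicate block, each sample left out, and a GC and length correction. On simulated counts for the comparison of mutant with WT (14276 genes, 200 changed), 72% of 2-fold and 50% of 1.5-fold changes were recovered (91.8% of 2-fold changes at a mean of at least 100 counts), with 4 false calls. Replicate pairs differed by more than sampling noise. Gene positions are from GENCODE vM21 and promoters from RefSeq (GRCm38.p6).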

Additional observations from a re-analysis of the deposited data

Results flagged for a closer look

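Within a group of 4 samples, the gap of the highest or lowest sample to its neighbour was divided by the group's range, and 8 of 100 groups exceeded Dixon's critical value, where chance gives about 1 in 20 groups. In 6 of the 8, the far sample was mutant 1, the library with the highest hemoglobin share. It was lowest for *Cdk2* (81.2 against 93.1 to 95.5 CPM in the other mutants, ratio 0.830) and *Cdk4* (339 against 411 to 415 CPM, 0.937). It was highest for *Cdkn1b* (114 against 49.7 to 57.5 CPM, 0.878), *Top2a* (722 against 561 to 586 CPM, 0.846), *Kif11* (192 against 146 to 150 CPM, 0.909) and *Tpx2* (203 against 177 to 181 CPM, 0.834). WT 2 was far above the other WT samples for *Cdt1* (69.1 against 62.7 to 63.8 CPM, 0.832), and WT 4 for *Ube2c* (200.3 against 183 to 185 CPM, 0.862).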

How the results depend on the processing

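*Myc*, *E2f2*, *Ccnd2*, *Ccnd3* and *Nrg1* kept their direction and their call in all 9 other settings and in all 8 fits without 1 sample. With DESeq2 3 cell cycle genes fell (*Ccnd2*, *Cdk6* and *Cdkn1c*). Without a filter on low counts, 3 S phase genes and 9 of the wider list (7 higher) were called. In that setting 22.7% of the cell cycle genes and 9.4% of the wider list were called, against 4.07% of all genes. With the GC and length correction, chosen after seeing the data, 2 fell (*Ccnd2* and *Cdkn1c*), and 1 of the wider list. With the replicate block, 616 genes were called (398 higher, 218 lower), 5 cell cycle genes (4 higher, with S phase 0 and G2/M 1) and 3 of the wider list (3 higher, 0 lower). These were 4.26% of all genes, 11.4% of the cell cycle genes and 3.23% of the wider list, whose share was thus below that of all genes. The samples share only numbers: same-numbered deviations correlated at -0.0911 to 0.0187, and no sample correlated best with its own number. Leaving out 1 sample gave 509 to 2523 calls (335 to 1368 higher, 174 to 1155 lower), 4 to 17 cell cycle genes (3 to 14 higher, 1 to 3 lower; G1 4 to 6, S phase 0 to 6, G2/M 0 to 5), 2 to 20 of the wider list (2 to 17 higher, 0 to 3 lower), a G1 median of -0.0604 to -0.0218 and a G2/M median of 0.071 to 0.121. With the GC and length correction the G1 median was -0.0703. Signs turned for genes near 0: *Mcm4* (-0.0082) and *Kif20a* (-0.0152) with upper-quartile scaling, *Kif20a* (-0.0010) without the filter, *Mycn* (-0.0773), *Plk1* (-0.0080) and *Ube2c* (-0.0158) with the GC and length correction. Without 1 sample, *Cdkn1b* ran from -0.11 to 0.36, *Kif11* from -7.16e-05 to 0.15, *Mycn* from -0.0297 to 0.109, *Kif20a* from -0.0366 to 0.0471, *Cdk2* from -0.00084 to 0.071 and *Mcm4* from -0.0374 to 0.0532. The cause was not tested. In simulation, 91.8% of 2-fold changes were recovered at a mean of at least 100 counts, and every cell cycle gene had at least 127 in each sample; recovery of smaller changes was not computed at such counts.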
